A study of Mus musculus with 3 samples.

Results

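The genes described here are 9 genes of capillary lipid uptake and lipolysis in adult lung endothelial cells (ECs): *Gpihbp1*, *Lpl*, *Lipg*, *Cd36*, *Fabp4*, *Fabp5*, *Scarb1*, *Slc27a1* and *Angptl4*. They were chosen by name, and all 9 have a row among the 24346 gene symbols of the deposited table. The ECs were freshly isolated from the lungs of wild type male C57BL/6J mice aged 6 to 8 weeks, by sorting after an intravital injection of VE-cadherin antibody and staining for CD31, CD45 and podoplanin. There are 3 libraries of this 1 condition, called S38, S44 and S52, so no groups can be compared and the replicate error is the spread between these libraries. The sources used here do not say whether each library came from 1 mouse or from several. The values are FPKM, which scale fragments to transcript length and sequencing depth, so levels of different genes can be set side by side.

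Triglycerides travel in the blood inside lipoproteins that are too large to cross the capillary wall. Lipoprotein lipase (LPL), made by cells outside the vessel, is carried to the luminal face of capillary ECs by GPIHBP1 and held there while it releases fatty acids. ECs then take up fatty acids with the help of the scavenger receptor CD36, move them through the cytoplasm on fatty acid binding proteins (FABPs), and take up lipids of high-density lipoprotein through SR-B1, the product of *Scarb1*. ANGPTL4 is a secreted inhibitor of LPL, and endothelial lipase (*Lipg*) acts mainly on phospholipids of high-density lipoprotein.

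Positions are those of GRCm38 (mm10) in GENCODE M21. *Gpihbp1* spans 75596628 to 75599481 of chromosome 15 (plus strand). *Lpl* (68880491 to 68907448) and *Slc27a1* (71568882 to 71587302) both lie on the plus strand of chromosome 8. *Cd36* (17781690 to 17888801) and *Scarb1* (125277087 to 125341094) both lie on the minus strand of chromosome 5. *Fabp5* (10012548 to 10016607, plus strand) and *Fabp4* (10204088 to 10208576, minus strand) both lie on chromosome 3. *Angptl4* spans 33773750 to 33781830 of chromosome 17 (minus strand).

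*Fabp4* and *Fabp5*, and likewise *Cd36* and *Scarb1*, are related genes, so their coding sequences are shown where they resemble each other most, to let a reader judge whether a read could be counted for the wrong gene. Each stretch is 1 read length of 51 bases in the coding strand, within a single exon, and capitals mark the bases that differ between the pair.
*Fabp4*, exon 3, chr3:10205274-10205324: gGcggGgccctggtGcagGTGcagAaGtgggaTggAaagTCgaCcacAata
*Fabp5*, exon 3, chr3:10015490-10015540: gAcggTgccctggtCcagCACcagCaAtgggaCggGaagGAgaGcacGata
*Cd36*, exon 11, chr5:17795603-17795653: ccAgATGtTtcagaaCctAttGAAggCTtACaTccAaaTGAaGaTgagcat
*Scarb1*, exon 8, chr5:125289661-125289711: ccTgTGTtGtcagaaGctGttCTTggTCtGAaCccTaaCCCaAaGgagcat
Even there the FABP genes differ at 14 of 51 bases and the scavenger receptor genes at 21 of 51. Shared windows were sought for 1 transcript of each member, the one with the longest coding sequence. Further transcripts of *Gpihbp1*, *Cd36*, *Scarb1* and *Slc27a1* were not searched. No window of 51 bases of the searched *Fabp4*, *Cd36*, *Scarb1*, *Gpihbp1*, *Lipg* or *Angptl4* transcript occurs in a transcript of another gene. *Fabp5* is the uncertain member: 191 of its 937 windows (20.4%) also occur in 1 or more of 5 other genes, *Gm6166*, *Gm14328*, *Fabp5l2*, *Gm13998* and *Gm6100*, none of which has a row in the table under that symbol. *Lpl* shares 73 of 4065 windows (1.80%) and *Slc27a1* 46 of 2745 (1.68%) with other genes.

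The endothelial label was checked against markers. All 10 endothelial genes had a mean of at least 10 FPKM, and their sum was 6369 (S38), 7058 (S44) and 6291 FPKM (S52). *Cldn5*, a tight junction gene, was the highest of them. *Pecam1* (CD31) was at 1125, 1216 and 1164 FPKM and *Cdh5* (VE-cadherin) at 877, 978 and 908 FPKM in the same order. The antigens used for exclusion were low, with *Pdpn* at 2.39, 1.84 and 3.09 FPKM and *Ptprc* at 4.30, 2.06 and 0.434 FPKM. Markers of other cells were present, and S52 stood apart from the other libraries in several of these lists. The alveolar type 2 sum was 3899, 3265 and 786 FPKM in the order S38, S44, S52. The airway sum, led by *Scgb1a1*, was 2792, 2317 and 418 FPKM, and the platelet sum, led by *Ppbp*, 1692, 1345 and 37.96 FPKM. The table gives no read totals. From the steps of its low values, the depth was estimated as 37.96 M fragments for S38, 38.9 M for S44 and 34.0 M for S52 (M, 1e6 fragments).

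The most abundant member was *Cd36*. It was at 1505 (S38), 1517 (S44) and 1507 FPKM (S52), a mean of 1509.7 ± 6.73 FPKM (SD, n = 3), which is 129% of the mean of *Pecam1*. *Gpihbp1* followed at 661, 663 and 886 FPKM, or 737 ± 129 FPKM (SD, n = 3), and *Scarb1* at 144, 178 and 152 FPKM, or 158 ± 18.0 FPKM (SD, n = 3). At the low end, *Slc27a1*, which encodes the fatty acid transport protein FATP1, was under 1 FPKM in every library. Of the 9 members, 8 (88.9%) had a mean of at least 1 FPKM, the threshold used here for detection, against 48.3% of all genes. The median of the members was 62.1 FPKM and that of all genes 0.784 FPKM. The members were chosen with results of these data known, so these counts are a description.

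**Figure D1:**
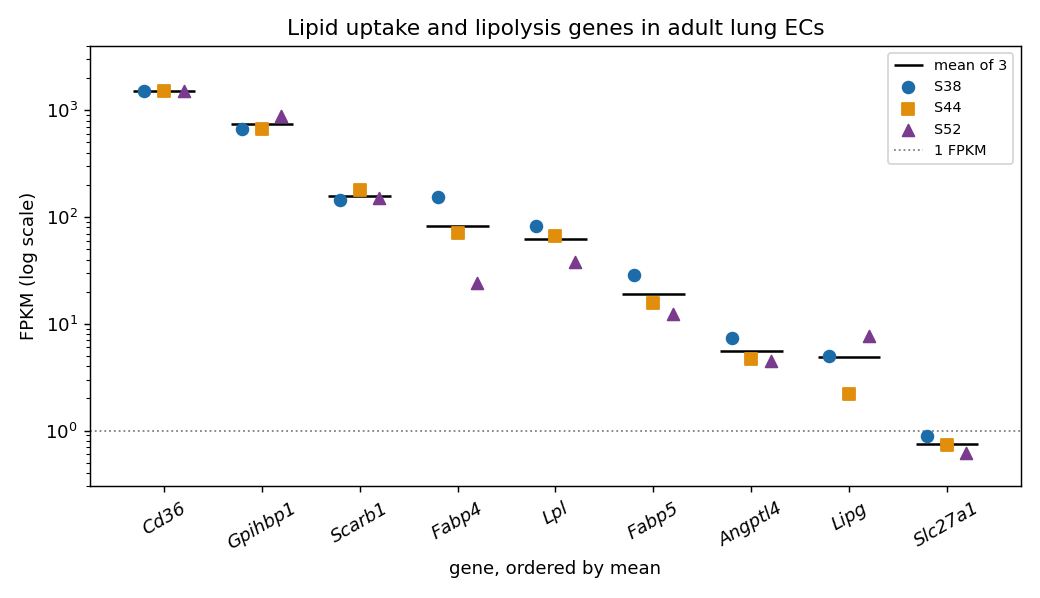
FPKM (log scale) of the 9 genes in adult lung ECs, ordered by mean; symbols are the 3 libraries and bars their mean (n = 3). *Cd36* is above 1500 FPKM in every library, *Fabp4* spreads from 24.0 to 153 FPKM, and *Slc27a1* is below 1 FPKM (dotted line) in every library.

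The first step is the capture of LPL at the capillary surface. *Gpihbp1*, which encodes the glycosylphosphatidylinositol-anchored protein that binds LPL, ranked 90 among genes other than short noncoding ones. S52 was its highest library, 1.34-fold above S38, while S38 and S44 differed by less than their 95% counting intervals of 651 to 671 FPKM and 654 to 673 FPKM. These intervals are exact Poisson intervals on the estimated fragments and cover counting error only. *Lpl*, the lipase itself, was far lower, at 81.6 (S38), 66.7 (S44) and 37.9 FPKM (S52), a mean of 62.1 ± 22.2 FPKM (SD, n = 3). S38 was its highest library and S52 its lowest, opposite to *Gpihbp1*. Within a library, where scaling has no effect, the level of *Gpihbp1* was 8.10 times that of *Lpl* in S38, 9.94 times in S44 and 23.3 times in S52. In bulk samples, fewer cells of a type and less RNA per cell cannot be told apart.

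*Lipg*, a lipase of the same family that ECs make and secrete, is encoded on the minus strand of chromosome 18 between 74939322 and 74961263, and it was low. It was at 4.94 (S38), 2.21 (S44) and 7.66 FPKM (S52), a mean of 4.94 ± 2.72 FPKM (SD, n = 3). The libraries differed beyond counting error, with intervals of 4.58 to 5.33 FPKM, 1.97 to 2.47 FPKM and 7.18 to 8.16 FPKM. *Lpl* was 16.5, 30.2 and 4.95 times as high as *Lipg* in S38, S44 and S52. *Angptl4*, the inhibitor of LPL, was at 7.32 (S38), 4.73 (S44) and 4.48 FPKM (S52), a mean of 5.51 ± 1.575 FPKM (SD, n = 3). Its S44 and S52 values lay within each other's counting intervals (4.35 to 5.13 FPKM and 4.09 to 4.90 FPKM), and S38 was above both. *Lpl* exceeded *Angptl4* by 11.1, 14.1 and 8.47 times in the same order.

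The second step is uptake across the luminal membrane. *Cd36* encodes a scavenger receptor that binds long-chain fatty acids and oxidised lipoproteins. Its highest library was 1.01-fold above its lowest on FPKM + 1 as deposited, and of the 887 genes whose mean reached 100 FPKM, none had a smaller fold. So small a fold depends on how the libraries are scaled. An alternative scaling by median ratios divides S38, S44 and S52 by 1.024, 1.008 and 0.975. Rescaling to the same sum divides them by more unequal sums, 1.15e6, 1.60e6 and 1.42e6, which widens the fold of *Cd36*. The median fold of those 887 genes was 1.33 as deposited. *Cd36* was 1.34, 1.25 and 1.29 times as high as *Pecam1* in S38, S44 and S52. Platelets also carry CD36. The 4 platelet genes were all lowest in S52 and summed to 1692, 1345 and 37.96 FPKM, and the part of platelets in the level of *Cd36* was not tested. *Scarb1* encodes SR-B1, the receptor for high-density lipoprotein and a relative of CD36. S44 was its highest library, and the libraries spanned 1.24-fold. *Cd36* was 10.5, 8.52 and 9.94 times as high as *Scarb1*, a mean ratio of 9.64 ± 1.01 (SD, n = 3).

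*Slc27a1* was at 0.898 (S38), 0.728 (S44) and 0.613 FPKM (S52), a mean of 0.746 ± 0.143 FPKM (SD, n = 3). The counting intervals were 0.722 to 1.10 FPKM, 0.572 to 0.913 FPKM and 0.462 to 0.798 FPKM. The intervals overlap, while the S38 and S52 values each lay outside the interval of the other, and no test of this difference was run. The values were well above the 0.0300, 0.0292 and 0.0334 FPKM that a count of 0 allows (3 fragments). Among the 6 genes of the Slc27 family, *Slc27a1* made up 7.78 ± 1.61% (SD, n = 3) of the summed FPKM. *Slc27a4* (FATP4), at 6.49, 6.94 and 6.90 FPKM, made up 70.6 ± 3.68%, and *Slc27a3* 16.8 ± 6.83% (SD, n = 3 for each). *Slc27a5*, the bile acid CoA ligase of liver, was listed at 0 in every library. The family sum was 9.58, 9.29 and 9.96 FPKM, and *Cd36* was 232, 219 and 218 times as high as *Slc27a4*.

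The third step is transport within the cell. *Fabp4*, the FABP of adipocytes, macrophages and capillary ECs, was at 153 (S38), 70.2 (S44) and 24.0 FPKM (S52), a mean of 82.3 ± 65.3 FPKM (SD, n = 3). No library overlapped another within its counting interval, which ran from 148 to 157 FPKM, 67.2 to 73.4 FPKM and 22.1 to 26.0 FPKM. Its mean rested on S38: it was 47.1 FPKM without that library and 112 FPKM without S52. *Fabp5*, the epidermal FABP, was at 28.6 (S38), 15.5 (S44) and 12.4 FPKM (S52), a mean of 18.8 ± 8.60 FPKM (SD, n = 3), with the limit on shared windows given above. *Fabp4* exceeded *Fabp5* in each library, by 5.35, 4.52 and 1.94 times. Over the 10 FABP family genes, *Fabp4* made up 81.7%, 78.0% and 54.1% of the summed FPKM and *Fabp5* 15.3%, 17.2% and 27.9%. *Fabp3*, the FABP of heart and muscle, was highest in S52, at 2.77, 1.99 and 6.83 FPKM, or 1.48%, 2.21% and 15.4%. *Fabp1*, the liver FABP, was at 2.27 and 2.27 FPKM in S38 and S44 and listed at 0 in S52. *Fabp6*, *Fabp9* and *Pmp2* were listed at 0 in every library.

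By mean level the members ranked *Cd36*, *Gpihbp1*, *Scarb1*, *Fabp4*, *Lpl*, *Fabp5*, *Angptl4*, *Lipg* and *Slc27a1*. Of the 8 neighbouring pairs in that order, 5 did not overlap, meaning that the lowest library of the higher gene was above the highest library of the lower gene. The exceptions were *Scarb1* and *Fabp4*, *Fabp4* and *Lpl*, and *Angptl4* and *Lipg*, and each of these orders held in 2 of 3 libraries. No test was run on the order, since a two-sided exact sign-flip permutation over 3 libraries cannot give a p below 0.25.

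A detected gene was said to spread over 2-fold where its highest library was more than 2 times its lowest on FPKM + 1. This held for 4 of the 8 detected members, *Fabp4* (6.16-fold), *Lipg* (2.70-fold), *Fabp5* (2.21-fold) and *Lpl* (2.12-fold), against 12.7% of the 11770 detected genes. *Angptl4* (1.52-fold), *Gpihbp1* (1.34-fold), *Scarb1* (1.24-fold) and *Cd36* did not, and the median over detected genes was 1.35-fold. The count depended on the libraries. Without S52 it was 1 (*Fabp4*) against 2.14% of genes, without S38 it was 2 (*Fabp4* and *Lipg*) against 8.36%, and without S44 it was 3 (*Fabp4*, *Fabp5* and *Lpl*) against 9.56%.

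**Figure D2:**
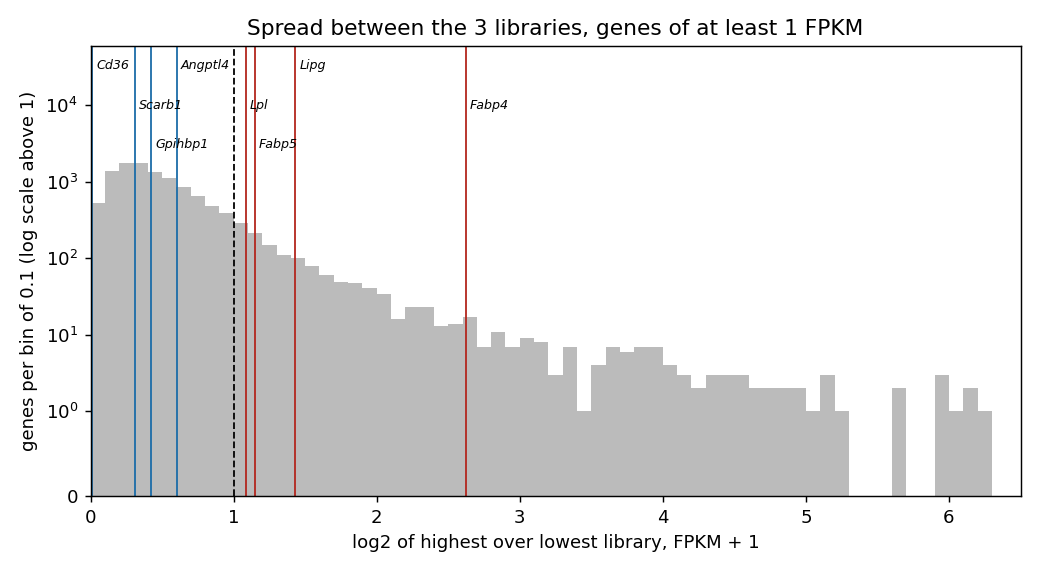
Histogram of the log2 ratio of the highest to the lowest library on FPKM + 1 for the 11770 detected genes (gene numbers on a log scale above 1), with lines for the 8 detected members. The 4 red lines lie right of the dashed 2-fold limit, with *Fabp4* at 2.62, and the line of *Cd36* lies at 0.01.

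The 4 members with a wide spread did not share 1 pattern. *Fabp4*, *Fabp5* and *Lpl* were highest in S38 and lowest in S52, as 6.02% of detected genes were at over 2-fold, and 8.74% were lowest in S52 at over 2-fold. *Angptl4* had the same order at a smaller fold, which makes 4 of the 8 detected members with this order at any fold, against 26.6% of detected genes. The values of *Slc27a1*, which is below the detection threshold, were in the same order. On the log2(FPKM + 1) scale S52 differed from S38 by -2.62 for *Fabp4*, -1.15 for *Fabp5* and -1.08 for *Lpl*, where the median of all detected genes was -0.08. S44 differed from S38 by -1.11, -0.84 and -0.29, where the median was -0.03. For *Fabp4*, 0.892% of detected genes had a lower difference between S44 and S38 and 1.24% between S52 and S38.

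The summed markers of several other cell types had the same order of libraries. All 10 alveolar macrophage genes were lowest in S52, and their sum was 115 (S38), 73.6 (S44) and 21.9 FPKM (S52). *Chil3*, a secreted lectin, led this list at 55.7, 26.1 and 3.28 FPKM. In S52, 4 of the 10 were listed at 0 (*Marco*, *Siglecf*, *Ear1* and *Itgax*), of which *Marco* (0.461 and 0.561 FPKM) and *Siglecf* (0.281 and 0.432 FPKM) were below 1 FPKM in S38 and S44 as well. The other 6 were above 0 in S52, with *Cd68*, a lysosomal gene of macrophages, at 17.0, 27.4 and 16.7 FPKM, *Mrc1* at 0.877, 0.743 and 0.638 FPKM and *Ear2* at 25.8, 7.70 and 1.11 FPKM. The level of *Fabp4* was 2.74, 2.69 and 7.32 times that of *Chil3*. All 7 alveolar type 2 genes were lowest in S52, led by *Sftpc* at 3333, 2862 and 658 FPKM. The level of *Fabp4* was 0.0459, 0.0245 and 0.0364 times that of *Sftpc*. The 7 leukocyte genes summed to 1077, 810 and 171 FPKM, mostly *Lyz2*, a lysozyme gene that alveolar type 2 cells also express. The 8 fibroblast genes summed to 564, 536 and 429 FPKM, led by *Inmt*, and 4 of them were lowest in S52. The part of these cells in the spread of *Fabp4*, *Fabp5* and *Lpl* was not tested. Adipocyte genes were near 0: none of 7 reached a mean of 1 FPKM, their sum was 3.41, 1.72 and 0.793 FPKM, *Retn* was listed at 0 in every library, and *Cidec* was the highest at 2.06, 0.814 and 0 FPKM.

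*Lipg* had another order, highest in S52 and lowest in S44, as 17.8% of detected genes were at any fold, and it was the 1 member lowest in S44 at over 2-fold, against 1.89% of detected genes. The 6 mural genes, which mark pericytes and smooth muscle cells, were all lowest in S44. Their sum was 120 (S38), 62.0 (S44) and 118 FPKM (S52), led by *Acta2* at 90.3, 46.7 and 79.7 FPKM, and the part of these cells in the level of *Lipg* was not tested. Of the 10 endothelial genes, 1 was lowest in S44. This was *Erg*, at 59.2 (S38), 43.1 (S44) and 84.8 FPKM (S52), the same order as *Lipg*. The lung capillary list, which held no member, summed to 3929, 4175 and 3416 FPKM, led by *Hpgd*. Its genes did not move together. Of the 9, 6 were lowest in S52, among them *Ednrb* at 143, 155 and 75.3 FPKM. *Plvap* was highest in S52, at 815, 976 and 1034 FPKM. Of the remaining lists, the lymphatic sum, mostly *Lyve1*, was 575, 634 and 414 FPKM, with *Prox1*, the factor that defines lymphatic ECs, at 0.132, 0.173 and 0.598 FPKM. The erythroid sum, led by *Hbb-bs*, was 394, 790 and 94.6 FPKM.

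**Figure D3:**
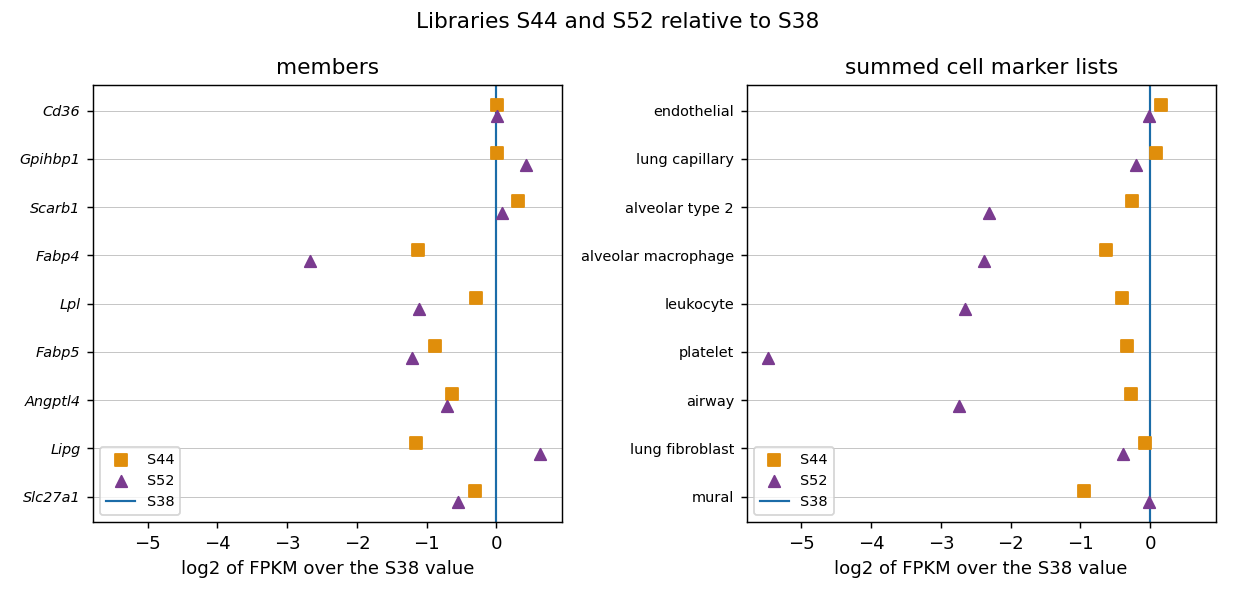
Log2 ratio of FPKM in S44 (squares) and S52 (triangles) to S38 (vertical line) for the 9 members, left, and for summed marker lists, right. *Cd36* and the endothelial sum lie near 0 in both libraries, *Fabp4* lies at -2.67 in S52, and the platelet sum lies at -5.48.

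The members were set beside 81 other genes of the same pathway, in 6 lists written with earlier results of these data known. Of these, 53 (65.4%) had a mean of at least 1 FPKM, against 48.3% of all genes, and their median was 4.51 FPKM. Among the 53, 7 (13.2%) spread over 2-fold between libraries, close to the 12.7% of all detected genes.

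Of 15 further genes of the LPL system, 7 (46.7%) were detected, close to the 48.3% of all genes. *Apoe*, the apolipoprotein that lipoprotein receptors bind, was the highest at 82.8 ± 14.2 FPKM, followed by *Lmf2* at 42.9 ± 4.57 FPKM, *Furin*, a protease that cleaves LPL and endothelial lipase, at 23.6 ± 3.20 FPKM and *Sel1l*, a partner in the exit of LPL from the endoplasmic reticulum, at 16.1 ± 4.78 FPKM (SD, n = 3 for each). *Lmf1*, the lipase maturation factor that folds LPL, was at 14.4, 19.8 and 13.1 FPKM. The circulating regulators *Angptl8*, *Apoc2* and *Apoa5*, made mainly by the liver, were low, unlike *Apoe*. *Angptl8* (in the table as *Gm6484*) was at 0.334, 0.657 and 0.748 FPKM, *Apoc2*, the activator of LPL, at 1.64, 0.625 and 0 FPKM, and *Apoa5* was listed at 0 in every library. *Apoc1* was the detected gene of this list that spread over 2-fold, at 2.48, 5.37 and 0.107 FPKM.

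Of 15 lipoprotein receptor genes, 12 were detected. *Acvrl1* (ALK1), a BMP receptor that also takes low-density lipoprotein across ECs, was at 839 ± 68.3 FPKM, above *Gpihbp1* in each library. *Scarb2*, a lysosomal relative of CD36 and SR-B1, was at 77.9 ± 6.09 FPKM, *Stab1*, a scavenger receptor, at 51.5 ± 11.2 FPKM and *Scarf1* at 31.4 ± 4.38 FPKM (SD, n = 3 for each). *Vldlr*, the receptor for very low-density lipoprotein, was lower, at 1.80, 0.722 and 0.535 FPKM. *Abcg1*, a cholesterol exporter to high-density lipoprotein, spread over 2-fold, at 8.79, 11.2 and 3.67 FPKM. *Pdzk1*, the adaptor of SR-B1 in liver, was at 2.14, 2.37 and 1.21 FPKM, far below *Scarb1* in each library.

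Of 13 genes of fatty acid transport and activation, 8 were detected and none spread over 2-fold. *Dbi*, the acyl-CoA binding protein, was at 65.7 ± 8.38 FPKM, *Acsl5* at 60.8 ± 8.72 FPKM, *Got2* at 40.1 ± 4.30 FPKM and *Acsl4* at 17.9 ± 2.02 FPKM (SD, n = 3 for each). The Acsl enzymes couple fatty acids to CoA, and *Acsl5* made up 65.1 ± 3.19% (SD, n = 3) of the summed FPKM of the 5 Acsl genes. *Acsl6*, like *Slc27a5*, was listed at 0 in every library. *Mfsd2a*, a lysophospholipid transporter of brain ECs, was at 0.185, 0.0257 and 0 FPKM.

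Intracellular lipolysis was the most abundant of the lists by median, at 24.7 FPKM, and 12 of its 14 genes were detected. *Cav1*, the main caveolar coat protein, was at 1253, 1324 and 1307 FPKM, and *Cd36* was 1.17 ± 0.0302 times as high (SD, n = 3). *Hilpda*, a lipid droplet protein that inhibits adipose triglyceride lipase, was at 293, 362 and 206 FPKM. *Mgll*, monoacylglycerol lipase, was at 70.5 ± 9.87 FPKM and *Pnpla2*, adipose triglyceride lipase, at 64.5 ± 0.601 FPKM (SD, n = 3 for each). The intracellular lipase *Pnpla2* and the extracellular lipase *Lpl* had means of like size. By library, *Pnpla2* was at 64.0, 64.3 and 65.2 FPKM, below *Lpl* in S38 and S44 and above it in S52. *G0s2*, a further inhibitor of adipose triglyceride lipase, spread over 2-fold, at 18.7, 31.4 and 13.7 FPKM. The droplet coat gene *Plin2* was at 47.8, 48.8 and 49.8 FPKM, whereas *Plin1*, the coat gene of adipocytes, was at 0.0154 FPKM in S38 and listed at 0 in S44 and S52.

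Of 16 regulators of fatty acid handling, 12 were detected. The highest were *Nr1h2* (LXRβ) at 54.4 ± 7.30 FPKM, *Rxrb* at 25.5 ± 0.844 FPKM, *Srebf2* at 22.6 ± 3.20 FPKM and *Meox1* at 17.4 ± 2.88 FPKM (SD, n = 3 for each). Of the PPARs, fatty acid-sensing receptors for which *Cd36*, *Fabp4*, *Lpl* and *Angptl4* are known targets, *Ppard* was at 7.83, 6.59 and 6.43 FPKM, *Pparg* at 2.26, 1.67 and 1.22 FPKM and *Ppara* at 0.190, 0.149 and 0 FPKM. The homeobox factor *Meox2* and its partner *Tcf15*, which drive fatty acid uptake genes in heart ECs, were at 2.44, 2.31 and 0.241 FPKM and at 0.543, 0.700 and 1.29 FPKM. *Meox2* and *Vegfb*, at 5.65, 3.66 and 8.79 FPKM, were the genes of this list that spread over 2-fold.

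**Figure D4:**
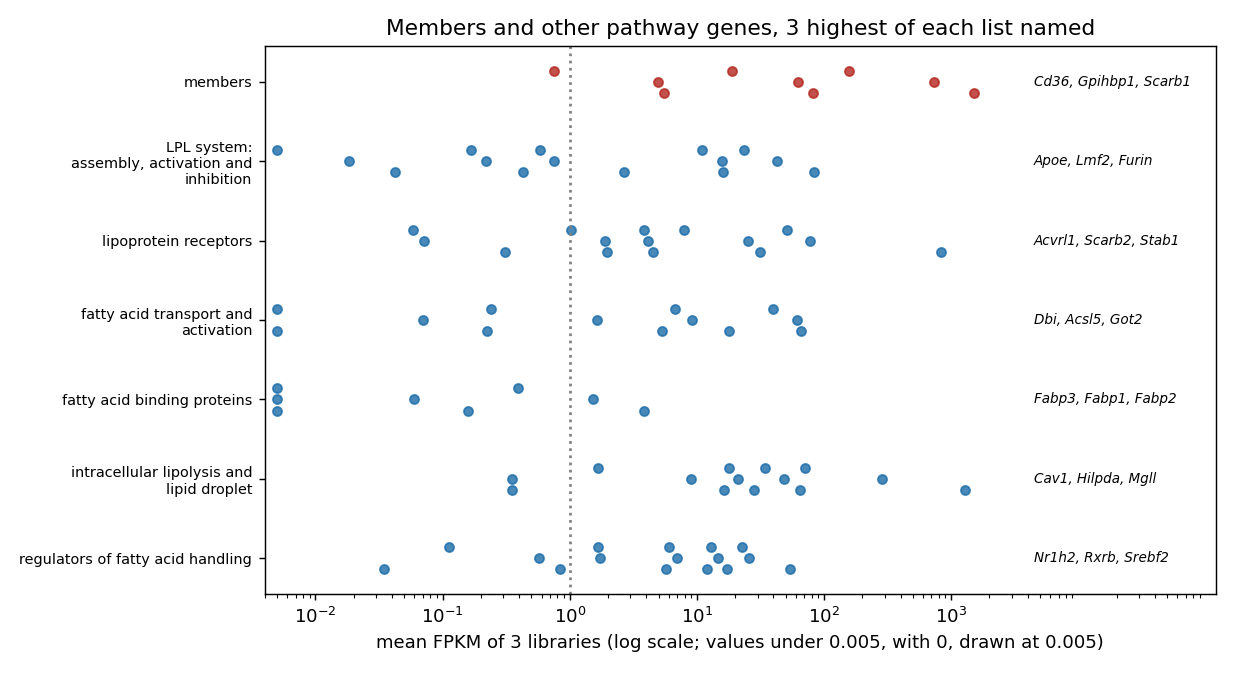
Mean FPKM over 3 libraries (log scale) of the 9 members, in red, and of 81 other pathway genes in 6 lists, in blue; the dotted line marks 1 FPKM and the 3 highest genes of each list are named. *Cav1*, *Acvrl1* and *Hilpda* are the genes outside the members above 100 FPKM.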

How the data were processed

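RNA of sorted adult lung ECs was poly-A selected, made into unstranded libraries and sequenced as paired 51 bp reads. The table that the authors deposited holds FPKM on mm10, by gene symbol, 1 column per library. The submitters' processing notes list TopHat2 2.1.0 and Cufflinks 2.2.1, whereas the study's methods describe STAR and HTSeq for counts. The gene annotation is not given in the sources used here. All per-sample columns were used (0 left out). Values were not rescaled. Folds used FPKM + 1. A gene was detected at a mean of 1 FPKM.

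Because FPKM are not counts and there is 1 condition, no model was fitted and no test between groups was run. Fragments were estimated from 7077 genes for which the basic set of GENCODE M21 has 1 transcript, between 800 and 4000 bp long, as the number that made low FPKM times corrected length whole. Of 384, 502 and 242 low values, 78.9%, 77.1% and 72.7% lay within 0.15 of a whole number. The estimate and the 2-fold call were tested on simulated data. Counting intervals are at 95%.

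The members and lists were chosen with earlier results of these data known. Named genes are the members, the 4 highest of each pathway list, genes listed at 0 in every library or over 2-fold between libraries, and the highest gene of the marker lists. Further genes were named after their values were seen, and a few genes are not reported here. Alternatives were 3 library scalings, other thresholds and pseudocounts, and leaving out each library. Python 3.11.15, numpy 2.4.6, pandas 2.3.3 and scipy 1.17.1 were used.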

Additional observations from a re-analysis of the deposited data

How the results depend on the processing

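The number of members detected was 8 or 9 under every alternative tried except a threshold of 10 FPKM, where it was 6. The 4 members over 2-fold between libraries were the same 4 genes under all 3 library scalings and with pseudocounts of 0 and 0.1, and their number was 1 to 3 when a library was left out. Over all detected genes, the number over 2-fold was 1492 as reported, 2363 with a pseudocount of 0, 2276 with 0.1, 971 without S38 and 254 without S52. Non-overlapping neighbours numbered 5 or 6 under the scalings and without each library. Other pathway genes detected fell from 53 to 32 with a threshold of 10 FPKM, and numbered 44 to 68 under the remaining alternatives. Of 54 alternative means of members, 50 stayed within 1 SD. Leaving out 1 of 3 libraries cannot move a mean by as much as 1 SD, so only the library scalings could give exceptions. The exceptions came from rescaling each library to the same sum, which was below the deposited sums of 1.15e6 (S38), 1.60e6 (S44) and 1.42e6 (S52). Much of each sum is short noncoding genes (59.9% in S38, 70.3% in S44 and 67.0% in S52). This changed the unit, and the means of all 9 members fell. In the new unit *Cd36* was 1104, *Gpihbp1* 537, *Scarb1* 114 and *Slc27a1* 0.554. These 4 had the smallest SD relative to their mean. *Lpl* fell to 46.4 and *Fabp4* to 64.4, within their wider SD. The exceptions therefore do not single out these 4 genes as more dependent on the processing.

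No paired analysis was possible because there is 1 group. With 3 libraries of 1 condition the spread can be technical or biological. Values of *Cd36*, *Fabp5* and *Scarb1* were written with over 6 significant digits, as for 18.5% of genes, and the others with 6 or fewer. How these were made is not given in the sources used here, so their fragment estimates are less certain, as are those of genes with several transcripts such as *Gpihbp1*.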

Other observations

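Genes with levels most like those of the 3 members above 100 FPKM were found by the root-mean-square difference of log2(FPKM + 1) over the 3 libraries, which is a likeness of levels in 1 condition only. For *Gpihbp1* the nearest was the ribosomal protein gene *Rps28* (0.06), which was also highest in S52. For *Cd36* they were the ferritin light chain gene *Ftl1* (0.10) and *Sepp1* (0.17), which encodes selenoprotein P. For *Scarb1* they were *Gadd45g* (0.05) and *Atp6ap1* (0.07).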
